A study of Mus musculus with 6 samples.

Results

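The genes of the insulin-like growth factor (IGF) axis were followed in 6 mouse breast tumors, 3 test and 3 control. The 10 genes were chosen by name from among the 18460 genes listed in at least 1 tumor, and are the ligands Igf1 and Igf2, the receptors Igf1r and Igf2r, and the binding proteins Igfbp2, Igfbp3, Igfbp4, Igfbp5, Igfbp6 and Igfbp7. All 10 were listed in every tumor and all 10 passed the filter on low counts, which left 13706 genes to be tested. Both groups were Balb/c mice that carried the PyMT transgene (PyMTtg), an oncogene driven in the mammary epithelium by the MMTV promoter, and that had no Rag1 (Rag1KO), so that the hosts made no T or B cells of their own. Every mouse was given CD4+ T cells at 4 wk of age. Onset was given as about 4 wk for both groups alike, and harvest as the endpoint of 18 to 20 wk. However, the paper reports a significantly later onset in test mice than in control mice. It also reports lower tumor grades in test mice than in its control groups combined. Onset and grade of the single tumors sequenced are not given, so the groups may differ in tumor age and grade. The control tumors came from PyMTtg;Rag1KO mice, and the test tumors from K14-TSLPtg;PyMTtg;Rag1KO mice, which in addition overexpressed the cytokine TSLP from the keratinocyte promoter K14. The comparison was thus between tumors with and without TSLP overexpression, in mice that were all given CD4+ T cells. It cannot tell TSLP exposure apart from differences in tumor age or grade.

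IGF1 and IGF2 are small secreted growth factors that act through IGF1R, a receptor tyrosine kinase of the insulin receptor family that feeds the PI3K and Akt pathway. IGF2R, also known as the cation-independent mannose 6-phosphate receptor, has no kinase and carries IGF2 to the lysosome. The binding proteins hold IGFs in the extracellular fluid, extend or block their access to IGF1R and release them upon proteolysis. In the mammary gland the axis acts in ductal growth, and Igfbp5 is known for its rise during involution after lactation. Igf2 is an imprinted gene read from the paternal allele, and its neighbor H19, a noncoding RNA, is read from the maternal allele.

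The regulatory sequence upstream of 4 genes is shown because the largest differences between groups concerned Igf2, Igfbp2, Igf1r and Igfbp6. Each window holds the 250 bases before a RefSeq start site on GRCm38.p6, written 5′ to 3′ on the strand of the gene, and none of the 4 windows overlaps an annotated exon. Capitals mark GGGCGG, the GC box, or TATAAA, the TATA box, on either strand, so that CCGCCC and TTTATA also count. The Igf2 window (chr7:142657497-142657746, minus strand) precedes the start of transcript Igf2-201, which is 1 of several starts of that gene. The Igfbp2 window is chr1:72824230-72824479 (plus strand), the Igf1r window chr7:67952007-67952256 (plus strand) and the Igfbp6 window chr15:102143936-102144185 (plus strand).
Igf2: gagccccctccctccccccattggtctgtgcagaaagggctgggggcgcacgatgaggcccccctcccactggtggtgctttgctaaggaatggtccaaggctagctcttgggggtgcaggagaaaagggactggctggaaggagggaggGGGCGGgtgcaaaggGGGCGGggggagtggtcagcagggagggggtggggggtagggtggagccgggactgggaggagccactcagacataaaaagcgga
Igfbp2: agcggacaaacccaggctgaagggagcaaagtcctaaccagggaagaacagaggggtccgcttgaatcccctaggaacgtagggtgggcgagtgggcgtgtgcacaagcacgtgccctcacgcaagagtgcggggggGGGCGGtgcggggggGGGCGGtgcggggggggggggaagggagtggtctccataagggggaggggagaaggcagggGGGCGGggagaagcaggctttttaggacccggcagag
Igf1r: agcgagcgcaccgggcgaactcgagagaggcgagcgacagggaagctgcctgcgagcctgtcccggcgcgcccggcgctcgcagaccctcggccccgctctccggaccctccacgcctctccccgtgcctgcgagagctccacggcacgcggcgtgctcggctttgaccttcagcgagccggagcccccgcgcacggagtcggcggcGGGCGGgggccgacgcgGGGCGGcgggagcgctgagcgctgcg
Igfbp6: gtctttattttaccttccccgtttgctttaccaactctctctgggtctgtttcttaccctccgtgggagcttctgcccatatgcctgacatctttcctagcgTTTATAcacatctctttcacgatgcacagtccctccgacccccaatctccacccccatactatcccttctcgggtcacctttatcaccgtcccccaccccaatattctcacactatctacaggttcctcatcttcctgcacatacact
The GC box stood 2 times in the Igf2 window, 3 times in that of Igfbp2 and 2 times in that of Igf1r, and it was absent from the Igfbp6 window. Windows before other RefSeq starts, not shown, held 1, 0 and 0 GC boxes for Igf2 and 0 for Igfbp2. Of 32851 RefSeq windows of the same length, 32.7% held a GC box. The Igfbp6 window held 1 TATA box, as 12.4% of all windows did, and the other 3 windows shown held none. GC content was 66% for Igf2, 67.2% for Igfbp2, 77.6% for Igf1r and 49.6% for Igfbp6, against a median of 52.4% over all windows. These matches describe the letters of the windows, and binding was not measured.

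Total expected counts, which are estimates of the reads from each gene, ran from 8373390 to 9449565 per tumor. Values of the 3 tumors of a group are given in the order of replicates 1, 2 and 3 throughout. The counts of Tslp were 2, 2 and 3 in the controls and 12, 7 and 2 in the test tumors. Tslp was at or under the floor of 3 counts in the controls and in test replicate 3. It therefore did not check the label of test replicate 3, and reads of the transgene and of the endogenous gene were not told apart. Rag1, deleted in both groups, had between 4 and 27 counts per tumor, and the knockout cannot be checked without the extent of the deletion. The T cell markers Cd3e, Cd3d, Cd3g, Cd4 and Lat summed to between 3.11 and 5.97 CPM, counts scaled to the size of the library, in the 6 tumors, and Cd3g was at 0 in control replicate 3. Luminal keratins and Epcam were abundant in all 6 tumors. Control replicate 2 stood apart from the other control tumors: no gene reached a false discovery rate of 0.05 with all 6 tumors, whereas 182 of 14166 did without it. Results that rest on this tumor are therefore given with and without it. It was singled out from these same data, so the fits without it are not independent support for a difference. In bulk tumor RNA, fewer cells of a type and less RNA per cell cannot be told apart.

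Among the 10 genes, 3 had a higher and 7 a lower fitted level in test tumors, and the median log2 fold change was -0.65, against 0.02 over all 13706 tested genes, of which 7058 were higher and 6648 lower. None of the 10 was called at a false discovery rate of 0.05 by edgeR's quasi-likelihood test, and neither was any other gene (0.0% of those tested). At an unadjusted p under 0.05, 4 of the 10 were called, where 8.41% of all tested genes were. Those lower in test tumors were Igf2, Igf1r and Igfbp2, against 5.26% of all tested genes in that direction, and Igfbp6 was higher, against 3.15%. The groups were separate, with no tumor of one within the range of the other, for 3 of the 10 genes, where 12.0% of all tested genes did not overlap. Test tumors were all lower for Igf1r and Igfbp5, as for 5.86% of tested genes, and all higher for Igfbp6, as for 6.12%. By DESeq2, 2 of the 10 were called at a false discovery rate of 0.05, Igf2 (adjusted p = 0.00407) and Igfbp6 (adjusted p = 0.0143), among 313 of 13674 genes (2.29%). Over the 14 other settings tried, the adjusted p ran from 0.00407 to 0.996 for Igf2 and from 0.0461 to 1.0 for Igfbp2, and over the 13 settings that tested Igfbp6 it ran from 0.0143 to 1.0 (edgeR, DESeq2 or limma). The study itself named Igf2 as higher in control tumors from these same libraries, so its direction is not independent evidence.

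**Figure D1:**
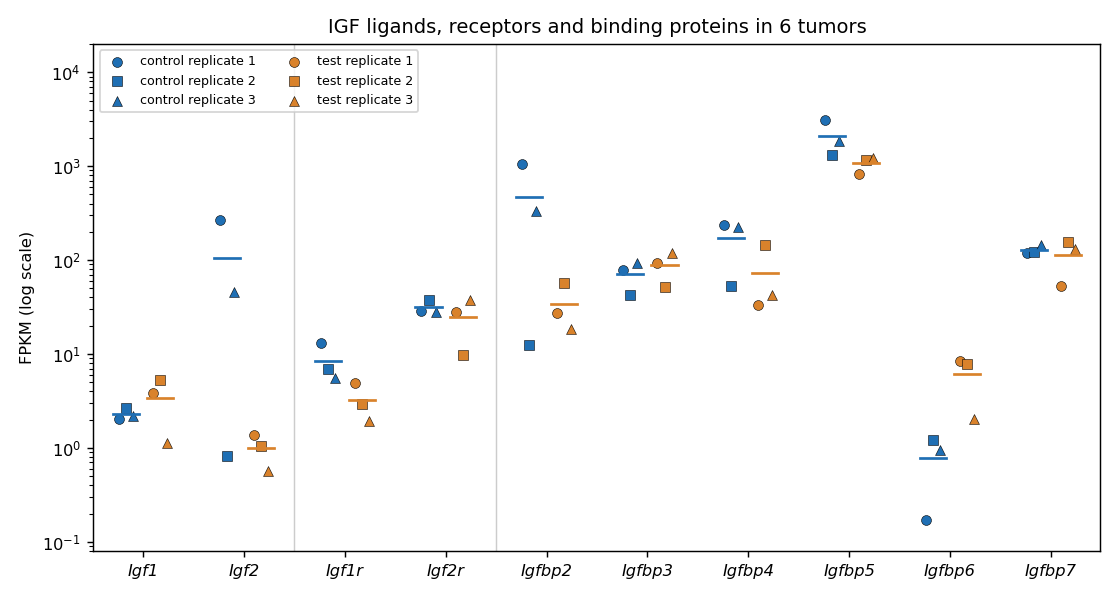
FPKM (fragments scaled for gene length and sequencing depth, log scale) of the 10 IGF axis genes in each of the 3 control (blue) and 3 test (orange) tumors; marker shapes give the replicate and horizontal bars the group mean. Igf2 and Igfbp2 were high in control replicates 1 and 3 and low in the other 4 tumors, while Igfbp6 was higher in each test tumor than in any control tumor.

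Igf2 (NCBI Gene 16002; chromosome 7, 142650768 to 142666816 on GRCm38), the fetal growth factor of the family, showed the widest range of the axis. Its level was 1080, 3.03 and 168 CPM in the controls, and 5.07, 4.39 and 2.12 CPM in the test tumors. Thus 2 control tumors stood far above all others, and control replicate 2 lay within the range of the test tumors. The means were 417 ± 580 CPM in the controls and 3.86 ± 1.55 CPM in test tumors (SD, n = 3 each), and the log2 fold change was -6.75 (standard error, SE, 1.77, adjusted p = 0.407 by edgeR). The difference of mean log2(CPM + 0.5), which gives less weight to the 2 highest tumors, was -4.38 (exact two-sided permutation p = 0.3), and 3 tumors against 3 cannot go below 0.1. Without control replicate 2, the control tumor with the least Igf2, the log2 fold change was -7.33 (adjusted p = 0.0205 by edgeR), in a comparison that called 1.28% of all genes. Without control replicate 1, the tumor with the most Igf2, the log2 fold change was -4.47 (adjusted p = 0.996 by edgeR).

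The noncoding RNA H19 (NCBI Gene 14955; chromosome 7, 142575530 to 142578146), next to Igf2, differed in that control replicate 2 lay above the test tumors. It was nearer to the highest test tumor than to the other control tumors. H19 was at 1295, 319 and 883 CPM in the controls, and at 75.5, 232 and 114 CPM in the test tumors. All 3 test tumors were below all 3 control tumors, with a log2 fold change of -2.56 (SE 0.62, adjusted p = 0.394 by edgeR; exact two-sided permutation p = 0.1, the smallest possible). In control replicate 2, H19 at 126 FPKM stood beside Igf2 at 0.81 FPKM, whereas control replicate 1 had 461 FPKM of H19 and 268 FPKM of Igf2.

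Igf1 (NCBI Gene 16000; chromosome 10, 87858265 to 87937047), the growth factor made by liver and by stroma in response to growth hormone, was low in every tumor. It was at 12.8, 18.5 and 15.4 CPM in the controls, and at 17.4, 36.4 and 6.26 CPM in the test tumors. The test tumors lay on both sides of the control tumors. The log2 fold change was 0.36 (SE 0.57, adjusted p = 0.881 by edgeR; exact permutation p = 1.0), and it was -0.40 without test replicate 2.

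Which ligand prevailed thus differed from tumor to tumor. Per length, Igf2 made up 99.3%, 23.3% and 95.4% of the summed Igf1 and Igf2 FPKM in the controls, and 26.3%, 16.8% and 33.3% in the test tumors. Igf2 was the main ligand transcript in control replicates 1 and 3, and Igf1 in the other 4 tumors. The mean share was 72.7% ± 42.8 in control and 25.5% ± 8.31 in test tumors (SD, n = 3 each). The difference was -47.2 percentage points (exact two-sided permutation p = 0.3), and control replicate 2 lay within the range of the test tumors. Summed ligand FPKM was 270, 3.47 and 48.2 in the controls, and 5.25, 6.32 and 1.71 in the test tumors.

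Igf1r (NCBI Gene 16001; chromosome 7, 67952257 to 68233668), the signaling receptor for both ligands, was lower in every test tumor than in any control tumor. It was at 168, 80.2 and 65.2 CPM in the controls, and at 57.4, 37.8 and 23.7 CPM in the test tumors. The gap between the groups was narrow, from 65.2 CPM in the lowest control tumor to 57.4 CPM in the highest test tumor. The means were 105 ± 55.7 and 39.6 ± 17 CPM (SD, n = 3 each), and the log2 fold change was -1.40 (SE 0.46, adjusted p = 0.475 by edgeR; exact two-sided permutation p = 0.1, the smallest possible). Leaving out each tumor in turn gave log2 fold changes from -1.77 to -0.88.

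Igf2r (NCBI Gene 16004; chromosome 17, 12682406 to 12769706), the clearance receptor for IGF2, did not separate the groups. It was at 279, 329 and 244 CPM in the controls, and at 242, 93.0 and 340 CPM in the test tumors. Test replicate 2 stood far below the other 5 tumors, and the rest overlapped or nearly did. The log2 fold change was -0.33 (SE 0.45, adjusted p = 0.851 by edgeR; exact permutation p = 0.6), and it was 0.04 without test replicate 2. Per length, Igf2r exceeded Igf1r in all 6 tumors, by ratios of 2.22, 5.49 and 5.01 in the controls and of 5.66, 3.29 and 19.2 in the test tumors. The ratios of the groups overlapped.

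**Figure D2:**
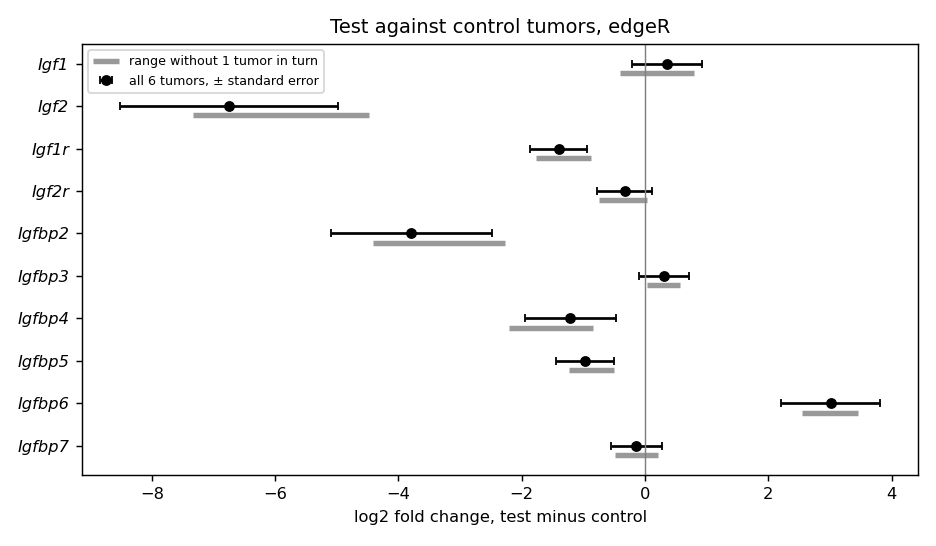
Log2 fold change of each IGF axis gene, test minus control, with its standard error from edgeR (points and bars) and the range when each of the 6 tumors was left out in turn (grey). Igf2 at -6.75, Igfbp2 at -3.79 and Igfbp6 at 3.01 lay farthest from 0, and the ranges of Igf1, Igf2r and Igfbp7 crossed 0.

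Igfbp2 (NCBI Gene 16008; chromosome 1, 72824480 to 72852474), a binding protein with a preference for IGF2, was distributed over the tumors much as Igf2 was. It was at 1486, 15.9 and 432 CPM in the controls, and at 35.4, 79.6 and 24.5 CPM in the test tumors. Control replicates 1 and 3 exceeded all test tumors, and control replicate 2 was the lowest of the 6. The means were 645 ± 758 CPM in the controls and 46.5 ± 29.2 CPM in test tumors (SD, n = 3 each), and the log2 fold change was -3.79 (SE 1.31, adjusted p = 0.491 by edgeR). The difference of mean log2(CPM + 0.5) was smaller, at -2.40 (exact permutation p = 0.4). Without control replicate 2, the tumor with the least Igfbp2, the log2 fold change was -4.37 (adjusted p = 0.0461 by edgeR). Without control replicate 1 the log2 fold change was -2.27 (adjusted p = 1 by edgeR). Without control replicate 2 the groups did not overlap for 6 of the 10 genes, with Igf2, Igf1r, Igfbp2, Igfbp4 and Igfbp5 lower and Igfbp6 higher in test tumors. However, 35.3% of 14166 genes did not overlap with that tumor left out.

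Igfbp5 (NCBI Gene 16011; chromosome 1, 72858065 to 72874865), which lies next to Igfbp2, was the most abundant transcript of the axis in all 6 tumors. It was at 19588, 7487 and 10703 CPM in the controls, and at 4672, 7265 and 7323 CPM in the test tumors. It held between 0.484% and 1.83% of all counts of a tumor and ranked 9, 51 and 14 by FPKM among all genes in the controls. In the test tumors it ranked 84, 92 and 43. Every test tumor was below every control tumor, but control replicate 2 exceeded the highest test tumor by a small margin. The means were 12593 ± 6268 and 6420 ± 1514 CPM (SD, n = 3 each), and the log2 fold change was -0.97 (SE 0.47, adjusted p = 0.65 by edgeR; exact two-sided permutation p = 0.1, the smallest possible).

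Igfbp6 (NCBI Gene 16012; chromosome 15, 102144186 to 102149512), which binds IGF2 far more tightly than IGF1, was the 1 binding protein higher in every test tumor. Its counts were 2, 14 and 11 in the controls and 92, 87 and 25 in the test tumors. These were 0.231, 1.51 and 1.17 CPM in the controls and 10.6, 10.6 and 2.65 CPM in the test tumors. Test replicates 1 and 2 were alike and test replicate 3 was much closer to the control tumors, and the count in control replicate 1 was under the floor of 3. The log2 fold change was 3.01 (SE 0.81, adjusted p = 0.417 by edgeR; exact two-sided permutation p = 0.1, the smallest possible), and leaving out each tumor gave values from 2.55 to 3.46. The sum of adipocyte markers was also highest in test replicates 1 and 2: Adipoq, Lep, Plin1, Cidec and Fabp4 summed to 24.7, 12.2 and 19.7 CPM in the controls and to 238, 61.0 and 14.6 CPM in the test tumors. Lep, with at most 4 counts in a tumor, was instead highest in control replicate 3. Of these 5 markers 2 were tested and both were higher in test tumors (unadjusted p under 0.05, none at a false discovery rate of 0.05), while Lep was at 0 in control replicate 1 and test replicates 2 and 3 and Plin1 at 0 in control replicate 1 and test replicate 3. The part of adipocytes in the Igfbp6 difference was not tested.

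Igfbp4 (NCBI Gene 16010; chromosome 11, 99040005 to 99052655), an inhibitor of IGF action that the protease PAPPA cleaves, was at 525, 106 and 450 CPM in the controls. In the test tumors it was at 66.9, 312 and 87.6 CPM, so that test replicate 2 lay among the control tumors and control replicate 2 near the low test tumors. Its log2 fold change was -1.21 (SE 0.74, adjusted p = 0.701 by edgeR; exact permutation p = 0.2). Igfbp3 (NCBI Gene 16009; chromosome 11, 7206086 to 7215498) carries IGFs in the circulation in a complex with the acid-labile subunit. It was at 204, 101 and 221 CPM in the controls and 220, 135 and 296 CPM in the test tumors, with overlapping groups and a log2 fold change of 0.31 (SE 0.40, adjusted p = 0.845 by edgeR). Igfbp7 (NCBI Gene 29817; chromosome 5, 77349240 to 77408045) binds IGFs only weakly and is known from vessels. It was at 139, 129 and 154 CPM in the controls and 56.2, 182 and 145 CPM in the test tumors, and its log2 fold change was -0.14 (SE 0.41, adjusted p = 0.938 by edgeR). Igfbp7 was therefore within 3.23-fold over the 6 tumors and Igfbp3 within 2.94-fold, against 93.5-fold for Igfbp2 and 509-fold for Igf2.

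Per length, the binding protein transcripts were dominated by Igfbp5. The 6 genes summed to 4571, 1542 and 2665 FPKM in the controls, and to 1032, 1583 and 1546 FPKM in the test tumors. Control replicate 2 lay just below test replicates 2 and 3, so that the groups overlapped. Igfbp5 was 67.7%, 85.0% and 70.1% of the sum in the controls, and 79.2%, 73.7% and 79.7% in the test tumors. Igfbp2 held 22.9% and 12.6% in control replicates 1 and 3, but 0.804% in control replicate 2 and from 1.19% to 3.60% in test tumors. Igfbp6 never held more than 0.824% of the sum.

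**Figure D3:**
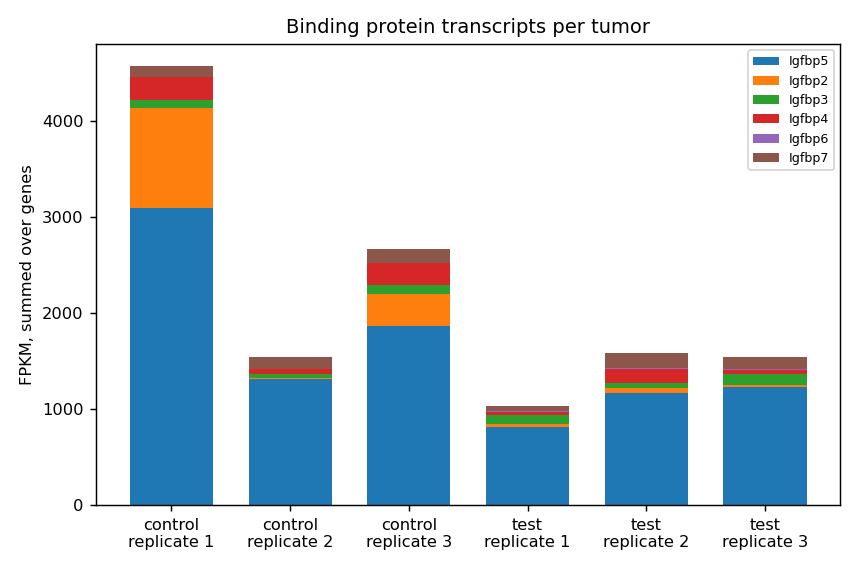
Summed FPKM of the 6 binding protein genes in each tumor (linear scale from 0), with each gene as a colored segment. Igfbp5 was the largest segment in all 6 tumors, and Igfbp2 was a large segment in control replicates 1 and 3 alone.

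The genes were also ordered by mean FPKM within each group. In control tumors the order was Igfbp5 at 2090, Igfbp2 at 464, Igfbp4 at 172, Igfbp7 at 128, Igf2 at 105, Igfbp3 at 70.8, Igf2r at 31.4, Igf1r at 8.45, Igf1 at 2.30 and Igfbp6 at 0.777 FPKM. From Igfbp2 down to Igfbp3, each gene overlapped the next in its range over the 3 tumors, and every other neighboring pair in the order was separate. The order of means did not hold in each control tumor: Igf2 exceeded Igfbp3 in 1 of 3 and Igfbp2 exceeded Igfbp4 in 2 of 3. In test tumors the order was Igfbp5 at 1072, Igfbp7 at 113, Igfbp3 at 88.2, Igfbp4 at 73.0, Igfbp2 at 34.3, Igf2r at 24.9, Igfbp6 at 6.12, Igf1 at 3.42, Igf1r at 3.26 and Igf2 at 1.00 FPKM. Here the ranges of neighbors overlapped from Igfbp7 to Igf2r and from Igfbp6 to Igf1r, and the remaining neighbors were separate.

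The genes closest in pattern to Igf2 and Igfbp2 were sought among all 13706 tested genes by the root mean square difference of log2(CPM + 0.5) over the 6 tumors, each gene centered on its mean. This is a description over 6 points, without a test. Nearest to Igf2 were Olig1 (0.62), Col2a1 (0.76), Gria4 (0.82), Pou2af1 (0.85) and Comp (0.90). Of these, Col2a1, a collagen of cartilage, was at 2433, 12.3 and 293 CPM in the controls, and at 3.81, 15.7 and 3.29 CPM in the test tumors. Olig1, a transcription factor of the oligodendrocyte lineage, was at 239, 0.108 and 93.3 CPM in the controls and at 1.27, 0.244 and 0.106 CPM in the test tumors. Nearest to Igfbp2 were Hoxa3 (0.51), Srgn (0.51), Gria3 (0.56), Insyn1 (0.56) and Ccnd2 (0.59). Ccnd2, which encodes cyclin D2, was at 1050, 15.9 and 464 CPM in the controls, and at 15.3, 29.3 and 22.3 CPM in the test tumors. All 10 of these genes were high in control replicates 1 and 3 and low in the other 4 tumors. Within the axis, the closest pairs were Igfbp5 with Igfbp7 (0.58) and Igf1r with Igfbp5 (0.65), and Igf2 with Igfbp2 stood at 1.18. The measure is small for any 2 genes that vary little, so it does not by itself show a shared pattern. Igfbp5 separated the groups and Igfbp7 did not.

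**Figure D4:**
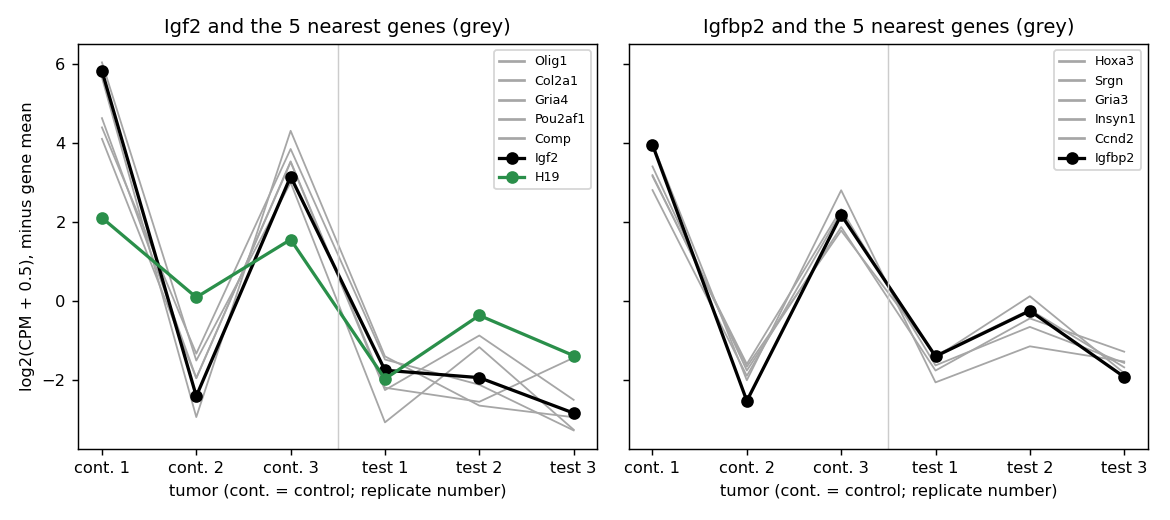
Log2(CPM + 0.5) minus the mean of each gene over the 6 tumors, for Igf2 with H19 and the 5 genes nearest to Igf2 (left) and for Igfbp2 with its 5 nearest genes (right). Control replicates 1 and 3 were above 0 and control replicate 2 and the test tumors mostly below it, and H19 differed from Igf2 at control replicate 2.

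The rest of the pathway was covered by 41 further genes in 5 lists, and 33 of them passed the filter on low counts. In test tumors 13 were higher and 20 lower, their median log2 fold change was -0.16, none passed a false discovery rate of 0.05 by edgeR, 1 had an unadjusted p under 0.05 (8.41% of all tested genes did) and none separated the groups (12.0% of all tested genes did). That gene was Grb14, an adaptor that inhibits the insulin receptor, at 48.0, 4.65 and 28.0 CPM in the controls and at 4.38, 5.25 and 5.94 CPM in the test tumors. Like Igf2, it was high in control replicates 1 and 3 alone. Its log2 fold change was -2.37 (SE 0.74, adjusted p = 0.458 by edgeR), and DESeq2 called it lower in test tumors (adjusted p = 0.0411). Leaving out control replicate 2, whose Grb14 lay within the range of the test tumors, gave a log2 fold change of -2.87 (adjusted p = 0.0228 by edgeR). Grb10, a related adaptor and itself an imprinted gene, was at 278, 9.63 and 169 CPM in the controls and at 36.0, 20.1 and 74.3 CPM in the test tumors (log2 fold change -1.80 (adjusted p = 0.686 by edgeR).

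The other adaptors and the insulin receptor differed less. Insr had a log2 fold change of 0.48, Grb2 of 0.71 and Shc1 of -0.75, and over the list of receptor and adaptor genes 3 were higher and 4 lower with a median of -0.29. Of the 14 genes of the PI3K, Akt and mTOR pathway, all tested, 4 were higher and 10 lower with a median of -0.25. Among its most abundant genes the log2 fold change was -0.05 for Pik3r1, the regulatory subunit of PI3K, -0.30 for the kinase Akt1 and 0.57 for the transcription factor Foxo1. Adjusted p-values by edgeR were 0.776 or more for these 3 genes.

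Among extracellular regulators of IGF, 7 of 10 were tested, 3 higher and 4 lower with a median of -0.15. Igfals, which encodes the acid-labile subunit, was at 39.1, 12.8 and 24.0 CPM in the controls and at 9.11, 22.6 and 3.93 CPM in the test tumors (log2 fold change -1.09, adjusted p = 0.70 by edgeR). M6pr, the cation-dependent mannose 6-phosphate receptor, had a log2 fold change of 0.14, the insulin-degrading enzyme Ide of -0.26 and the secreted PAPPA inhibitor Stc1 of 0.34. The mRNA-binding proteins Igf2bp1, Igf2bp2 and Igf2bp3 had at most 26 counts in a tumor, and none of the 3 was tested. Of growth hormone receptor and STAT5 genes 3 were higher and 2 lower with a median of 0.0. Ghr, the growth hormone receptor, had a log2 fold change of -0.78 (adjusted p = 0.656 by edgeR), and Socs2, Stat5a and Jak2 lay at 0.07, 0.0 and 0.04.

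Marker levels of several cell types moved with the groups or with single tumors. The luminal markers Epcam, Cdh1, Krt8, Krt18 and Krt19 summed to between 1590 and 3563 CPM in control tumors and between 4696 and 5035 CPM in test tumors, with 5 of 5 higher in test tumors, 3 of them at an unadjusted p under 0.05, and none at 0. Krt8, Krt18 and Krt19 each separated the groups, but Epcam and Cdh1 did not. Epcam was at 383, 797 and 281 CPM in the controls and at 791, 730 and 789 CPM in the test tumors. Cdh1 was at 339, 596 and 348 CPM in the controls and at 783, 411 and 782 CPM in the test tumors. The lower Igf1r and Igfbp5 of test tumors thus stood beside a higher sum of luminal markers. Pericyte markers (Pdgfrb, Rgs5 and Cspg4) had 3 of 3 genes lower in test tumors and summed to between 50.7 and 109 CPM in the controls and between 33.6 and 62.2 CPM in test tumors. Among basal and myoepithelial markers 1 of 6 was higher in test tumors, and the summed level ran from 421 to 2895 CPM in the controls and from 475 to 1128 CPM in test tumors. Its member Trp63, the basal transcription factor p63, was at 371, 16.0 and 58.5 CPM in the controls and at 23.4, 6.47 and 20.4 CPM in the test tumors. The other basal markers did not share the peak of Trp63 in control replicate 1. There Krt5, Krt14 and Myh11 were at 8.56, 15.6 and 7.41 CPM, the lowest of the 6 tumors. Acta2 and Oxtr, at 268 and 72.3 CPM there, lay within the range of the other tumors.

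Skeletal muscle markers were 5 of 5 higher in test tumors and were also high in control replicate 2, at 6.71, 156 and 4.05 CPM in the controls and 837, 150 and 76.6 CPM in the test tumors, with Ckm at 0 in control replicate 1. The tumors with little Igf2 and Igfbp2 were therefore those with more muscle transcripts. Fibroblast markers had 5 of 6 genes higher in test tumors, from 967 to 2948 CPM in the controls and from 1161 to 4971 CPM in test tumors. Endothelial markers ran from 92.2 to 128 CPM in the controls and from 102 to 133 CPM in test tumors, with 3 of 5 higher. Macrophage markers ran from 199 to 446 CPM in the controls and from 192 to 409 CPM in test tumors, with 1 of 5 higher. No marker passed a false discovery rate of 0.05 by edgeR, and the part of these cell types in the differences of the IGF axis was not tested.

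**Figure D5:**
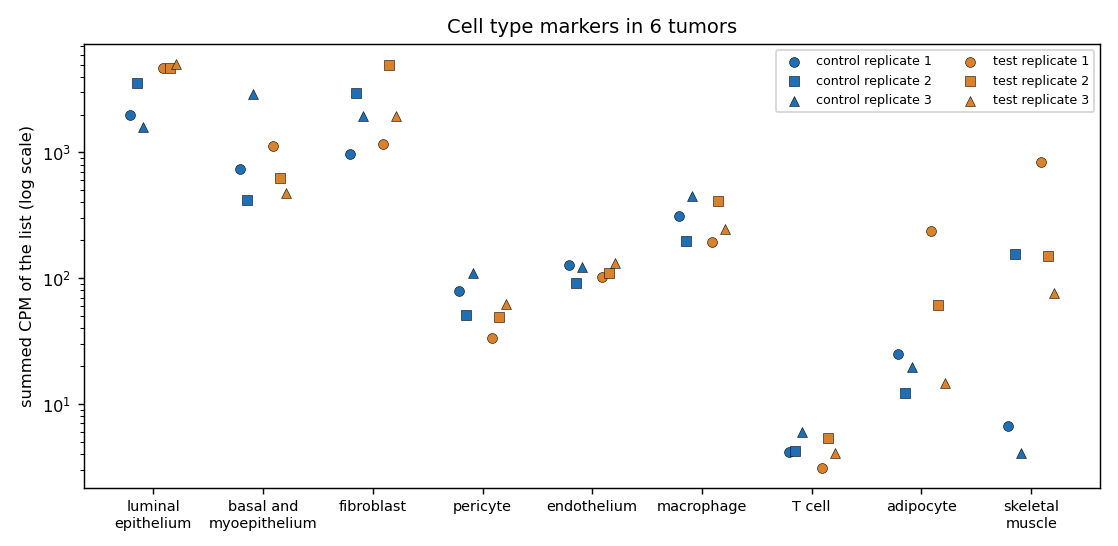
Summed CPM of each list of cell type markers (log scale) in each of the 3 control (blue) and 3 test (orange) tumors, with marker shapes for the replicates. The luminal sum was higher in each test tumor (4696 to 5035 CPM) than in any control tumor (1590 to 3563 CPM), although Epcam and Cdh1 alone overlapped. The groups overlapped for the sums of the other lists.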

How the data were processed

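RNA of 6 breast tumors, each from a separate mouse, was sequenced by the study, with libraries made at BGI. The authors aligned reads to mm10 with Bowtie, and the submitters' processing notes also name BWA and RSEM. The authors deposited expected counts without normalization, together with FPKM values scaled for gene length and depth and the gene lengths in bases. Of the expected counts above 0 in a tumor, 79.0% to 80.1% were exactly whole as deposited, with no tolerance. Whether counting used the strand, and the annotation release, are not given in the sources used here.

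The tables name genes by NCBI Gene number. Out of 18460, 18400 matched the reference annotation by that number, 6 through a transcript and 54 did not match. A gene not listed in a tumor was set to 0.

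Expected counts were rounded for edgeR 4.0.16 under R 4.3.3 (filterByExpr, TMM, quasi-likelihood test, Benjamini-Hochberg over all tested genes, no covariate). The study names the Poisson method, NOISeq or EBSeq without saying which it used here. The standard error is the size of the log2 fold change over the square root of F. CPM uses TMM library sizes, and exact permutation tests used all 20 splits of the 6 tumors on log2(CPM + 0.5). The biological coefficient of variation was 0.434, and the floor of 3 counts covers counting error only. The fit was tested on simulated data.

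Alternatives were RLE and upper-quartile scaling, no filter, a filter of 10 counts in every tumor, DESeq2 1.42.0, limma 3.58.1 (limma-trend on FPKM for genes with a mean of at least 1), a replicate block, other pseudocounts, the ligand share by CPM, and leaving out each tumor. The count of non-overlapping genes without each tumor was added after the data were seen. The members and lists were chosen with earlier results of these data known. Named genes were all members, H19, Tslp and Rag1, the 4 most abundant genes of each pathway list and those with an unadjusted p under 0.05, the 5 genes nearest to Igf2 and to Igfbp2, and the cell type markers. A gene that this rule names is not reported here.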

Additional observations from a re-analysis of the deposited data

How the results depend on the processing

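Across 139 refits of the 10 fold changes under other settings, 136 kept their direction. The exceptions were Igf1 at -0.40 and Igf2r at 0.04 without test replicate 2, and Igfbp7 at 0.21 without test replicate 1. Their ranges over the omission of each tumor were -0.40 to 0.80, -0.75 to 0.04 and -0.48 to 0.21. Against 0 with all tumors, DESeq2 called 2 IGF axis genes, 1 further pathway gene and 313 genes in all at a false discovery rate of 0.05, and limma-trend on log2(FPKM + 1) called 1 gene in all. Leaving out each tumor gave 0 to 2 axis genes, 0 to 1 pathway gene and 0 to 182 genes in all, and the highest counts came without control replicate 2. At an unadjusted p under 0.05 those ranges were 2 to 6 of the axis (4 with all tumors), 0 to 4 of the pathway (1 with all tumors, 2 by DESeq2) and 654 to 2020 of all genes (1153 with all tumors). The axis count was 2 without control replicate 1 and 2 without test replicate 3. Between 3 and 6 axis genes did not overlap, again with the most without control replicate 2. Of all tested genes, 12.0% did not overlap with all tumors and 35.3% without control replicate 2. That share was not computed for the other omissions. Why the counts were highest without control replicate 2 was not tested. On log2(FPKM + 1) and log2(FPKM + 0.1), limma-trend gave smaller differences of -3.85 and -4.42 for Igf2, -2.40 and -2.41 for Igfbp2 and 1.89 and 2.88 for Igfbp6. Igfbp6 was not tested under the filter of 10 counts in every tumor.

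The replicate numbers do not pair the tumors, which came from different mice: deviations of same-numbered tumors correlated at -0.0249, 0.121 and -0.137. With a replicate block, 2 axis genes had an unadjusted p under 0.05, and the log2 fold change was -5.29 for Igf2, -3.18 for Igfbp2, -1.37 for Igf1r and 2.94 for Igfbp6, with no gene at a false discovery rate of 0.05 and 1056 at an unadjusted p under 0.05.

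With 3 tumors a group and a wide spread among control tumors, a difference that missed the threshold is not shown to be absent, and Igfbp6 rests on 2 to 92 counts per tumor.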

Other observations

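Genes that overlap members on the other strand were looked at after the values were seen. The counts of Igf2os, which overlaps Igf2, were 9, 0 and 1 in the controls and 1, 0 and 1 in the test tumors. The counts of Airn, which overlaps Igf2r, were 37, 23 and 23 in the controls and 31, 22 and 58 in the test tumors. Without strand, reads from such overlapping genes cannot be told apart.

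The deposited length of Igf2 differed between tumors, at 3737, 3826 and 3747 bases in the controls and 3776, 3906 and 3691 bases in the test tumors. That of Igf1 varied more, from 4611 bases in test replicate 1 to 7121 bases in control replicate 2. With a pseudocount of 0.1, the difference of means for Igf1 was 0.04 on log2 CPM and 0.32 on log2 FPKM. The Igf2 share of the ligands differed by -48.6 percentage points by CPM, against -47.2 by FPKM. In the reference annotation used here, the Igf2 transcripts Igf2-201, Igf2-204 and Igf2-205 are 3708, 3970 and 4722 bases long. Test replicate 3, at 3691 bases for Igf2, lay below the shortest of them. The release behind the deposited lengths is not given, so those lengths cannot be read as a mix of these transcripts.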
